A study of Rattus norvegicus with 6 samples.

Results

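The annexin family was followed with and without serum in rat nucleus pulposus cells, which populate the soft centre of the intervertebral disc and were grown as primary cultures. Members were chosen by gene symbol, and all 9 (Anxa1 to Anxa8 and Anxa11) were found among 17093 genes in each deposited table. RNA came from 3 serum-starved libraries, kept for 48 h without fetal bovine serum, and from 3 control libraries kept in 10% serum. All cells came from male animals and were used at passage 3 to 6, in a DMEM-F12 medium with penicillin and streptomycin, per the labels. The labels name no strain, age or number of animals. Nor do they tie a library to its own animal or culture. The p-values therefore speak of the spread between these 6 libraries, part of which may be technical.

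Annexins are proteins that bind acidic phospholipids, above all phosphatidylserine, when calcium rises. Each has a repeated membrane-binding core and an N-terminal tail that differs between members and carries the binding sites for partners, among them S100 proteins. The family is known for roles in membrane repair, vesicle traffic, plasmin generation at the cell surface and, in cartilage, mineral-forming matrix vesicles.

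The sequences before the gene start are shown for 3 members because these behaved differently: Anxa2 fell most, Anxa11 rose, and Anxa1 stayed abundant in both groups. They are the 250 bases 5′ of each gene start, from RefSeq on the GRCr8 build, at chr1:227303733-227303982 (minus strand), chr8:78986002-78986251 (plus strand) and chr16:1419484-1419733 (plus strand). Capitals mark matches to the TATA box motif TATAAA, the GC box motif GGGCGG and the AP-1 motif TGANTCA, each searched on both strands.
Anxa1: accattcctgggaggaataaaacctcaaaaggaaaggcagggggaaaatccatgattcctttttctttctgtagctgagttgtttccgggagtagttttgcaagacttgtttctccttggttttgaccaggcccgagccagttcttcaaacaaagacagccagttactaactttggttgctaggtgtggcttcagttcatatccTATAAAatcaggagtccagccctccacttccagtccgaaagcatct
Anxa2: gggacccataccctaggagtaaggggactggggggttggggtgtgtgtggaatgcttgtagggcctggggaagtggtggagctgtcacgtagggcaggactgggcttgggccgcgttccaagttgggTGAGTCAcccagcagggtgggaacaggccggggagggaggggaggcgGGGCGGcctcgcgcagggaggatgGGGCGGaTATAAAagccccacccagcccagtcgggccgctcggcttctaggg
Anxa11: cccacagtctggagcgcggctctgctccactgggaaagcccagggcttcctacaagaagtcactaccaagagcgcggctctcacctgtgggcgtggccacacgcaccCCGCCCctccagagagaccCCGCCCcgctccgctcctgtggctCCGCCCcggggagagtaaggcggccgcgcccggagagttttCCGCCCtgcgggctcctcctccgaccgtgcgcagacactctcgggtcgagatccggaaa
The Anxa2 stretch held 1 AP-1 match (TGAGTCA, starting 123 bases before the gene start), 2 GC boxes and 1 TATA box (starting 45 bases before it). The Anxa1 stretch held 1 TATA box, starting 46 bases before the gene start, and neither of the other motifs. The Anxa11 stretch held 4 GC boxes, read as CCGCCC on the strand shown, and no TATA box. Among 33469 rat stretches of the same length, 6.34% held an AP-1 match, 30.5% a GC box and 12.9% a TATA box. Of the 8 members matched in the sequence table, Anxa2 alone held an AP-1 match. GC boxes were found in Anxa2, Anxa3, Anxa4, Anxa5 and Anxa11, and TATA boxes in Anxa1 and Anxa2. Such matches describe letters, not bound sites.

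Each library had between 11153 and 11254 genes with a value of at least 1, and the depth in reads is unknown. Values are given as deposited and treated as FPKM, a count of fragments per transcript length and library size. The file headers name no unit. The library sums were 524903 ± 4498 in controls and 459262 ± 13046 after starvation (SD, n = 3 each), so the choice of scale matters for small changes. As a check of the cell label, Pax1, Foxf1 and Foxf2 were at 12.45 or more in all 6 libraries. Acan, the gene of the main disc proteoglycan, was at 47.20 to 102.75 in control but only 2.67 to 3.27 in serum-starved libraries, and Sox9 fell from 5.11 ± 0.668 to 1.27 ± 0.0723 and Car12 from 1.76 ± 0.431 to 0.05 ± 0.0361 (SD, n = 3 each). Car12 reached a value of 1 in control libraries only. Other markers of the same list went the other way. Car3 rose from 1.03 ± 0.219 to 26.15 ± 0.852 and Pax1 from 27.53 ± 3.43 to 51.22 ± 5.02 (SD, n = 3 each). Krt18 was listed at 0 in all 6 libraries, Col2a1 did not exceed 0.06 and Cd24 did not exceed 0.56. Of 20 nucleus pulposus marker symbols, 14 were matched, and T, Tbxt, Krt19, Noto, Shh and Ovos2 were not. Summed values of the matched genes were 245.7 to 255.3 in serum-starved and 408.6 to 440.3 in control libraries. Of these genes 3 were higher, 7 lower and 1 did not pass. In controls this sum was led by Slc2a1, which fell from 141.9 ± 5.08 to 30.7 ± 3.10, and Hif1a, from 121.8 ± 8.85 to 96.6 ± 0.366 (SD, n = 3 each). Summed values of 8 matched fibroblast and annulus markers were 3511 to 3667 against 2790 to 3171, with 5 higher and 1 lower. This sum was mostly Col1a1, at 2697 ± 53.9 in serum-starved and 1799 ± 213 in control libraries (SD, n = 3 each). Endothelial markers summed to at most 1.19, and epithelial and red cell markers to at most 0.08. Macrophage and leukocyte markers summed to 10.63 to 14.21 in serum-starved and 23.49 to 29.94 in control libraries, mostly Cd14, and Adgre1 did not exceed 0.02. Muscle and nerve markers summed to 12.58 to 17.77 and 114.6 to 139.6, mostly Des. The part of these marker shifts in the annexin results was not tested.

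In serum-starved cells, 6 annexins fell, 1 rose and 2 did not pass the test. Anxa2, the membrane-bound partner of S100a10, fell 3.30-fold, and Anxa8, Anxa3 and Anxa5 fell between 1.497-fold and 1.87-fold. Anxa6 and Anxa7 fell by smaller amounts, Anxa11 rose 1.20-fold, and neither Anxa1 nor Anxa4 passed. All 9 members passed the filter on low values. Changes were tested with limma across all genes, and a gene was called when its p, adjusted by Benjamini-Hochberg over all tested genes, was no more than 0.05. In this comparison 61.1% of 11493 tested genes were called, 31.7% higher and 29.4% lower, and 7 of the 9 members were called. For the 6 members called lower the background is that 29.4%. With equal library totals 4 members were called lower, and the background there is 2327 of 11493 tested genes lower and 5303 higher. These counts are a description, with no test of the list. The median log2 fold change was -0.30 over the members and 0.03 over all tested genes. Log2 fold changes of single genes compare mean log2(value + 1), control subtracted from serum-starved, and folds are ratios of mean values. For ratios between genes and for the summed annexin value, log2 was taken without adding 1. In bulk RNA, fewer cells of a type and less RNA per cell cannot be told apart.

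**Figure D1:**
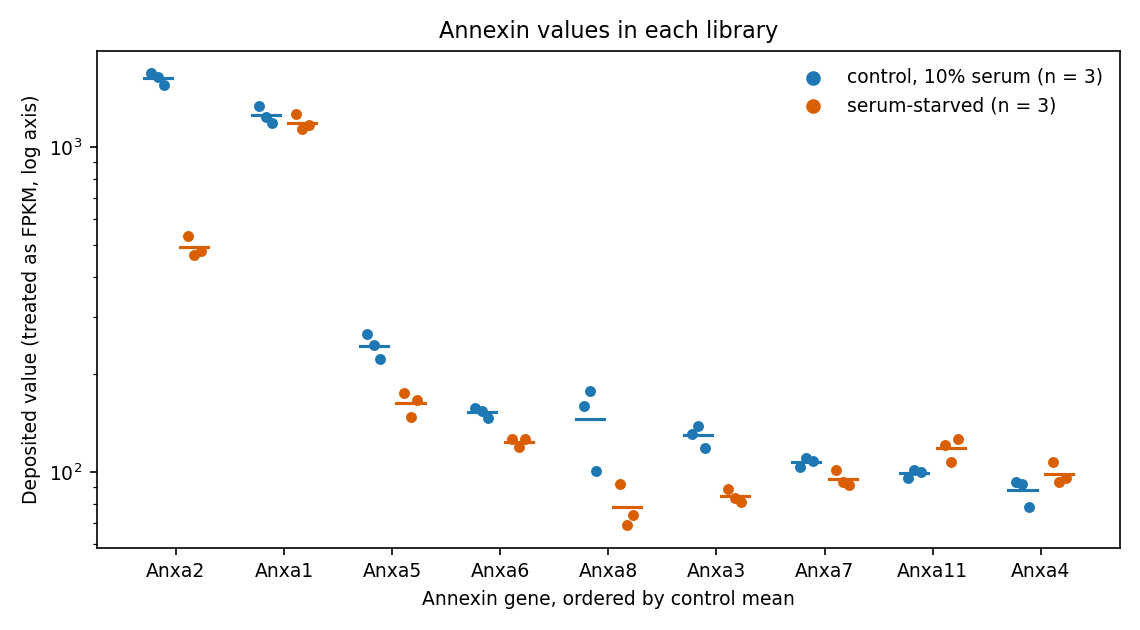
Deposited values (treated as FPKM, log axis) of 9 annexin genes in 3 control (blue) and 3 serum-starved (orange) libraries; points are libraries and lines are group means. Anxa2 was at least 1556.79 in every control library and at most 533.22 in every serum-starved one, while the Anxa1 groups overlapped.

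Scaling each library to the same total, instead of using the values as deposited, raised the median log2 fold change of all genes from 0.03 to 0.20 and the share of called genes that were higher from 51.8% to 69.5%. Relative to that median, Anxa2 stood at -1.75 as deposited and -1.73 with equal totals, and Anxa3 at -0.64 and -0.62. Anxa5 stood at -0.61 and -0.59, and Anxa8 at -0.89 and -0.87. For Anxa6 these values were -0.33 and -0.31, for Anxa7 -0.20 and -0.18, and for Anxa11 0.22 and 0.24. For Anxa1 they were -0.11 and -0.08, and for Anxa4 0.14 and 0.16. Equal totals moves the median and each member by nearly the same amount, so such pairs agree by construction. Anxa2, Anxa3, Anxa5 and Anxa8 were called lower in all 14 alternative analyses. Anxa6, Anxa7, Anxa11, Anxa1 and Anxa4 changed their call in at least 1 alternative, given beside each below.

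Anxa2 binds S100a10 at the inner face of the plasma membrane, where the pair links membrane to actin and helps assemble plasmin at the surface. The deposited Anxa2 values were 533.22, 467.31 and 479.98 in serum-starved replicates 1, 2 and 3 and 1686.18, 1642.59 and 1556.79 in control replicates 1, 2 and 3. The groups lay far apart, with no control value below 1557 and no serum-starved value above 533.2. Anxa2 (gene ID 56611) fell from 1629 ± 65.8 to 494 ± 35.0 (SD, n = 3 each), a log2 fold change of -1.72 ± 0.078 (SE; limma, Benjamini-Hochberg adjusted p = 7.76e-07). Its absolute change exceeded that of 95.9% of tested genes. In control cells it ranked 29 among all genes by level, and in serum-starved cells 138. RefSeq names 8 pseudogenes of Anxa2 and none of them has a row in the tables, so fragments shared with those copies cannot be told apart from those of the gene.

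Anxa1, the glucocorticoid-linked annexin once called lipocortin for its inhibition of phospholipase A2, was listed at 1264.65, 1135.24 and 1166.38 in serum-starved replicates and at 1335.91, 1241.38 and 1182.21 in controls. These ranges overlapped, and the means were 1189 ± 67.5 and 1253 ± 77.5 (SD, n = 3 each). The log2 fold change was -0.08 with a 95% interval from -0.26 to 0.11 (limma, Benjamini-Hochberg adjusted p = 0.436). With equal library totals it was 0.12 (limma, Benjamini-Hochberg adjusted p = 0.145), and after quantile normalization Anxa1 was called higher at 0.29 (adjusted p = 0.00441).

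The most abundant annexin thus differed between the groups. The ratio of Anxa2 to Anxa1 values was 0.422, 0.412 and 0.412 in serum-starved replicates and 1.26, 1.32 and 1.32 in controls. Replicates agreed closely within each group and the groups did not overlap. The log2 ratio differed by -1.65, serum-starved minus control (exact two-sided permutation p = 0.1, the smallest that 3 against 3 libraries allow). A ratio within a library does not depend on the library's scale. This ratio was added after the values were seen.

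In control cells the order of levels was Anxa2, Anxa1, Anxa5, Anxa6, Anxa8, Anxa3, Anxa7, Anxa11 and Anxa4. The ranges of the control libraries overlapped between Anxa6 and Anxa8 and between Anxa8 and Anxa3, and all other neighbours were separate. In serum-starved cells the order was Anxa1, Anxa2, Anxa5, Anxa6, Anxa11, Anxa4, Anxa7, Anxa3 and Anxa8. There, the neighbours Anxa6 and Anxa11, Anxa4 and Anxa7, and Anxa3 and Anxa8 overlapped. Anxa11 moved from place 8 to place 5 in this order, and Anxa8 from place 5 to the last. The values summed over the 9 members were 2611.19, 2317.25 and 2409.96 in serum-starved and 4031.25, 3905.54 and 3615.55 in control replicates. This sum was 0.532% ± 0.0174 of the library's summed values in serum-starved and 0.734% ± 0.0397 in control cells (SD, n = 3 each). Anxa2 made up 80.8% of the difference between the group means of the sum. The share of Anxa2 in the sum was 20.2% ± 0.252 in serum-starved and 42.3% ± 0.654 in control cells, and that of Anxa1 was 48.6% ± 0.333 and 32.5% ± 0.690 (SD, n = 3 each).

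**Figure D2:**
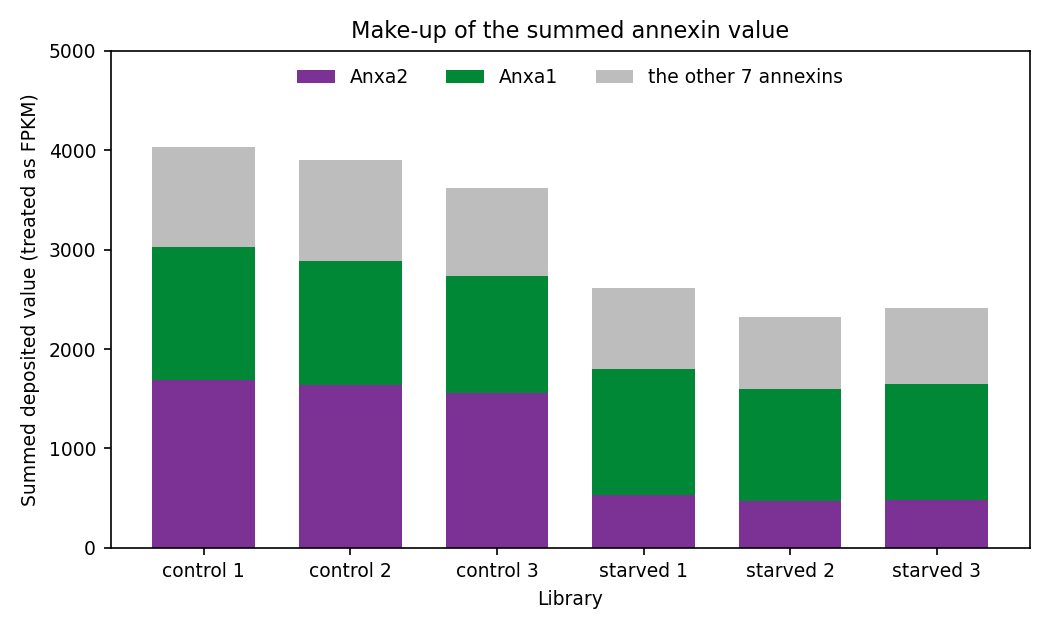
Summed deposited value (treated as FPKM) of the 9 annexins in each library, split into Anxa2 (purple), Anxa1 (green) and the other 7 (grey). The bars reach 3615.55 to 4031.25 in control and 2317.25 to 2611.19 in serum-starved libraries, and the Anxa2 part shrinks most.

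Anxa5, Anxa6 and Anxa4 are annexins with short tails that coat phosphatidylserine-rich membranes. Anxa5, the protein used as a probe for exposed phosphatidylserine, was listed at 175.88, 148.09 and 167.24 in serum-starved and at 266.23, 245.90 and 223.13 in control replicates. All serum-starved values lay below all controls. Its log2 fold change was -0.58 ± 0.090 (SE; limma, Benjamini-Hochberg adjusted p = 0.000721). Anxa6, whose core is duplicated and which recruits a Ras GTPase-activating protein to membranes, was listed at 126.65, 119.70 and 126.80 against 158.10, 154.81 and 147.34 in controls. The groups were separate, and the log2 fold change was -0.30 ± 0.061 (SE; limma, Benjamini-Hochberg adjusted p = 0.00284). With equal library totals Anxa6 stood at -0.11 and did not pass (adjusted p = 0.112). Anxa4 was listed at 107.29, 93.53 and 95.98 against 93.66, 92.10 and 78.02 in controls. These ranges overlapped, since the lowest serum-starved value was below the highest control value. The log2 fold change of Anxa4 was 0.17, with a 95% interval from -0.03 to 0.37 (limma, Benjamini-Hochberg adjusted p = 0.128). Anxa4 was called higher with equal library totals (0.36, adjusted p = 0.00383) and after quantile normalization (0.33, adjusted p = 0.00944).

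Anxa3 and Anxa8 also fell. Anxa3, another of the short-tailed annexins, was listed at 88.56, 83.40 and 81.14 in serum-starved and at 131.58, 138.98 and 118.88 in control replicates. The groups were separate, with a log2 fold change of -0.61 ± 0.075 (SE; limma, Benjamini-Hochberg adjusted p = 0.000185). Anxa8, an annexin linked to late endosomes, was listed at 92.08, 68.75 and 73.76 against 159.68, 177.47 and 100.71 in controls. Control replicate 3 was well below the other controls and close to the highest serum-starved library, though the groups did not overlap. The log2 fold change was -0.86 ± 0.20 (SE; limma, Benjamini-Hochberg adjusted p = 0.00581). Leaving out control replicate 3 gave -1.11 (adjusted p = 0.000281).

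Anxa7 and Anxa11 carry the long, glycine- and proline-rich tails of the family. Anxa7, also known as synexin, acts in membrane fusion, and Anxa11 tethers RNA granules to lysosomes. Anxa7 was listed at 101.65, 93.41 and 91.66 in serum-starved and at 104.18, 110.62 and 108.34 in control replicates. The groups were separate by a narrow margin, between 101.65 and 104.18. The log2 fold change was -0.17 ± 0.064 (SE; limma, Benjamini-Hochberg adjusted p = 0.0458), just inside the threshold. The call of Anxa7 was lost without serum-starved replicate 2 (adjusted p = 0.12) or 3 (0.163) and without control replicate 1 (0.0554), 2 (0.145) or 3 (0.079). With equal library totals the value was 0.02 (adjusted p = 0.77), and after quantile normalization -0.009 (adjusted p = 0.895). RefSeq names 4 pseudogenes of Anxa7, none of which has a row in the tables.

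Anxa11 was listed at 121.21, 107.82 and 127.02 in serum-starved replicates and at 95.73, 101.69 and 100.13 in controls. Every serum-starved value was above every control value. Anxa11 rose from 99.2 ± 3.09 to 119 ± 9.85 (SD, n = 3 each), a log2 fold change of 0.25 ± 0.074 (SE; limma, Benjamini-Hochberg adjusted p = 0.017). The call of Anxa11 was lost without serum-starved replicate 3 (0.20, adjusted p = 0.075) and without control replicate 1 (0.23, adjusted p = 0.0545). With equal library totals the value was 0.44 (adjusted p = 0.000509). Over the family, the groups did not overlap for 7 of 9 members, beside 68.2% of all tested genes.

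**Figure D3:**
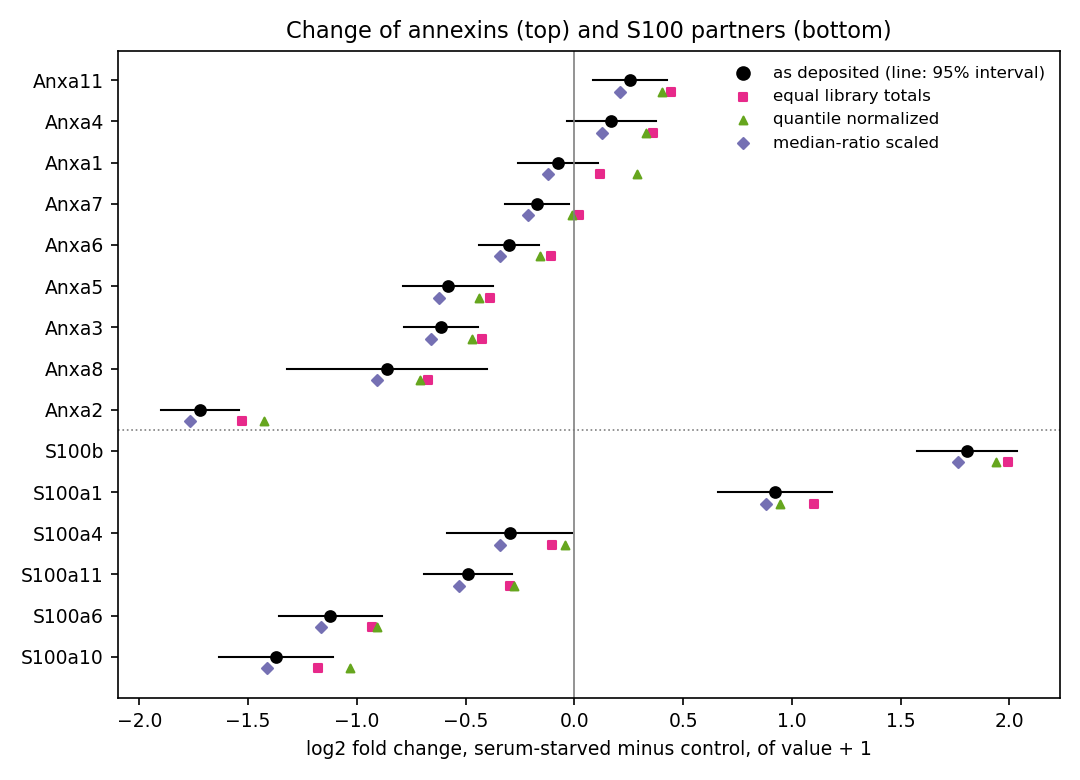
Log2 fold change (serum-starved minus control, log2 of value + 1) of the 9 annexins and of 6 S100 partners, as deposited (black, with 95% intervals) and under 3 other scalings (coloured). Anxa2 lies at -1.72 and Anxa11 at 0.25, and Anxa1 and Anxa7 cross 0 when library totals are made equal.

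Anxa9 and Anxa13, the remaining family members with a row, were near 0. Anxa9 did not exceed 0.10 and Anxa13 did not exceed 0.04 in any library, so neither was tested. No row was matched for Anxa10.

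The S100 proteins are small calcium-binding dimers, several of which dock onto annexin tails. Among the 6 S100 partners 3 fell, 2 rose and 1 did not pass, beside 29.4% of all tested genes lower and 31.7% higher. Their median log2 fold change was -0.39. S100a10, the partner of Anxa2, was listed at 706.97, 543.55 and 564.98 in serum-starved and at 1633.79, 1637.47 and 1409.22 in control replicates. The groups were far apart, and S100a10 fell 2.58-fold, with a log2 fold change of -1.37 ± 0.11 (SE; limma, Benjamini-Hochberg adjusted p = 2.32e-05). S100a6, which binds several annexins, fell 2.18-fold, from 3423 ± 312 to 1572 ± 155 (SD, n = 3 each). S100a11, the partner of Anxa1, fell 1.40-fold, from 1955 ± 81.0 to 1396 ± 127 (SD, n = 3 each). S100a4, a further partner of Anxa2, was at 3803 ± 445 and 3097 ± 378 (SD, n = 3 each) with overlapping groups (limma, Benjamini-Hochberg adjusted p = 0.069). It was called lower without serum-starved replicate 1 (adjusted p = 0.0412) or control replicate 3 (adjusted p = 0.0304), with library weights (adjusted p = 0.0144) and with median-ratio scaling (adjusted p = 0.0439). S100a1 and S100b, both binders of Anxa6, rose instead. S100a1 rose 1.98-fold to 19.8 ± 1.77, and S100b rose 3.55-fold, from 32.1 ± 4.69 to 114 ± 4.64 (SD, n = 3 each).

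The balance between each annexin and its main S100 partner was compared as a ratio within each library. The ratio of Anxa2 to S100a10 values was 0.754, 0.860 and 0.850 in serum-starved replicates and 1.03, 1.003 and 1.10 in controls. Both transcripts fell, and the log2 ratio differed by -0.35, serum-starved minus control (exact two-sided permutation p = 0.1). The ratio of Anxa1 to S100a11 values was 0.822, 0.877 and 0.860 in serum-starved and 0.682, 0.610 and 0.632 in control replicates. Its log2 value differed by 0.41, serum-starved minus control (exact two-sided permutation p = 0.1). In both ratios the groups did not overlap, and 0.1 is the smallest p that 3 against 3 libraries allow.

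Plasmin generation, which the Anxa2 and S100a10 pair is known to assist, was represented by 5 tested genes (median log2 fold change -0.50). Of these 3 fell, 0 rose and 2 did not pass, beside 29.4% of all tested genes lower and 31.7% higher. Plau, the urokinase activator, fell 9.48-fold from 78.5 ± 11.1 to 8.28 ± 2.65, and its receptor gene Plaur fell 3.30-fold to 4.82 ± 1.41 (SD, n = 3 each). Plat, the tissue activator, fell 1.42-fold, from 54.8 ± 3.43 to 38.5 ± 3.47 (SD, n = 3 each). Plg, the gene of plasminogen itself, did not exceed 0.07. With equal library totals 1 gene of this list, Plgrkt, which encodes a plasminogen receptor, was called higher; it was named after its values were seen.

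Of 9 tested genes listed as annexin partners or neighbours, 4 rose, 3 fell and 2 did not pass. Among all tested genes 31.7% were called higher and 29.4% lower. Tia1, an RNA-binding protein of stress granules, rose 2.84-fold to 15.6 ± 1.42, and Lamp1, a lysosomal membrane protein, rose 2.20-fold to 839 ± 8.79 (SD, n = 3 each). Ahnak, a giant scaffold bound by the Anxa2 and S100a10 complex, fell 1.32-fold, from 163 ± 13.6 to 124 ± 21.6 (SD, n = 3 each). Its call was lost without serum-starved replicate 1 (adjusted p = 0.0548) or 3 (0.0619), without control replicate 1 (0.0606), with equal library totals (0.175) and after quantile normalization (0.114). Without serum-starved replicate 1, without any 1 of the controls, with no filter, with median-ratio scaling or with the replicate block, 2 genes of this list rose. None fell without serum-starved replicate 3 or control replicate 1, with equal library totals or after quantile normalization. The formyl peptide receptors, through which Anxa1 signals, were near 0: Fpr1 did not exceed 0.48 and Fpr2 did not exceed 0.04. Neither passed the filter on low values, and with no filter Fpr1 was called higher.

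Among 18 tested plasma membrane repair genes, 4 rose, 4 fell and 10 did not pass, around a median log2 fold change of 0.02. Over all tested genes 31.7% were called higher and 29.4% lower. Cav1, the coat protein of caveolae, fell 1.88-fold from 456 ± 25.4 to 242 ± 20.4, and Myof (myoferlin) fell 1.36-fold (SD, n = 3 each). Capn1, a calcium-activated protease, rose 1.36-fold. Dysf (dysferlin) was at 14.8 ± 1.17 in control and 15.9 ± 1.14 in serum-starved cells (SD, n = 3 each) and did not pass. With equal library totals 11 repair genes rose, and after quantile normalization 8 did, beside 5303 and 3941 of all 11493 tested genes.

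Phosphatidylserine, the lipid that annexins bind, is moved by flippases and scramblases and recognised by bridging proteins. Of 15 tested genes for its exposure and recognition, 8 rose, 3 fell and 4 did not pass (median log2 fold change 0.39). The background was 31.7% of all tested genes higher and 29.4% lower. Atp8a1, a flippase, rose 7.56-fold, from 0.847 ± 0.0666 to 6.40 ± 0.378 (SD, n = 3 each). Gas6, a bridge between phosphatidylserine and receptor kinases, rose 3.65-fold to 177 ± 36.0, and its receptor gene Mertk rose from 0.193 ± 0.0586 to 2.45 ± 0.709 (SD, n = 3 each). In controls Atp8a1 did not exceed 0.92 and Mertk did not exceed 0.26. Atp8a1 and Mertk thus passed the filter on low values only through the serum-starved group, where they are high. Plscr1, a scramblase gene, fell 2.69-fold, and the Gas6 receptor gene Axl fell 1.38-fold. Plscr1 and Axl were named after their values were seen. Mfge8, another bridging protein, was at 373 ± 19.4 and 385 ± 27.2 (SD, n = 3 each) and did not pass. With the filter at a value of 5, 5 genes of this list rose.

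All 10 tested phospholipase A2 and eicosanoid genes were called, 6 lower and 4 higher, beside 61.1% of all tested genes. Equal library totals gave 4 lower and 4 higher, and with median-ratio scaling or quantile normalization 6 were lower and 3 higher. Ptgs2, the inducible cyclooxygenase, fell 4.71-fold, and Ptges, a prostaglandin E synthase, fell from 16.8 ± 9.03 to 2.91 ± 0.884 (SD, n = 3 each). Pla2g4a, the cytosolic phospholipase A2 that Anxa1 is known to inhibit, named after its values were seen, fell 1.44-fold. The secreted phospholipase gene Pla2g2a rose 2.41-fold to 33.5 ± 12.7, although control replicate 3 at 21.53 overlapped with serum-starved replicate 2 at 21.32. Without serum-starved replicate 3, control replicate 1 or control replicate 2, and with the filter at a value of 5, which tests fewer genes, 2 genes of this list rose.

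The glucocorticoid response list was chosen because Anxa1 is a known target of these hormones. In it, 3 of 8 tested genes fell, 2 rose and 3 did not pass. For this list and the mineral and copine lists below, the background is 29.4% of all tested genes lower and 31.7% higher. Sgk1 fell 5.17-fold, Dusp1 3.35-fold and Fkbp5 4.65-fold, from 4.44 ± 0.182 to 0.953 ± 0.178 (SD, n = 3 each). The 2 that rose, Hsd11b1 and the receptor gene Nr3c1, were named after their values were seen. Hsd11b1 went from 156 ± 17.2 to 268 ± 28.8 and Nr3c1 from 21.3 ± 2.07 to 29.8 ± 0.677 (SD, n = 3 each). Tsc22d3, also named after its values were seen, was at 13.5 ± 2.82 and 14.2 ± 0.922 (SD, n = 3 each) and did not pass. Of 7 tested matrix vesicle and mineral genes, 4 fell, 2 rose and 1 did not pass. The phosphate carriers Slc20a1 and Slc20a2 fell 4.19-fold and 2.04-fold, and Nt5e, an ectonucleotidase, fell 3.06-fold. The 2 that rose were Mgp, from 74.8 ± 22.3 to 130.5 ± 38.2 with overlapping groups, and Enpp1, from 9.41 ± 2.61 to 16.5 ± 3.93 (SD, n = 3 each). Without serum-starved replicate 3 none of these genes rose, and 1 rose when control replicate 1 or 3, or serum-starved replicate 1 or 2, was left out, and with no filter. Alpl, the phosphatase that marks mineralizing cells, did not exceed 0.56. Among the copines, another family of calcium-dependent phospholipid binders, 1 of 3 tested genes rose and 2 did not pass. Cpne3 rose 1.39-fold to 25.6 ± 1.35 (SD, n = 3). Without serum-starved replicate 1, 1 copine, Cpne2, fell.

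**Figure D4:**
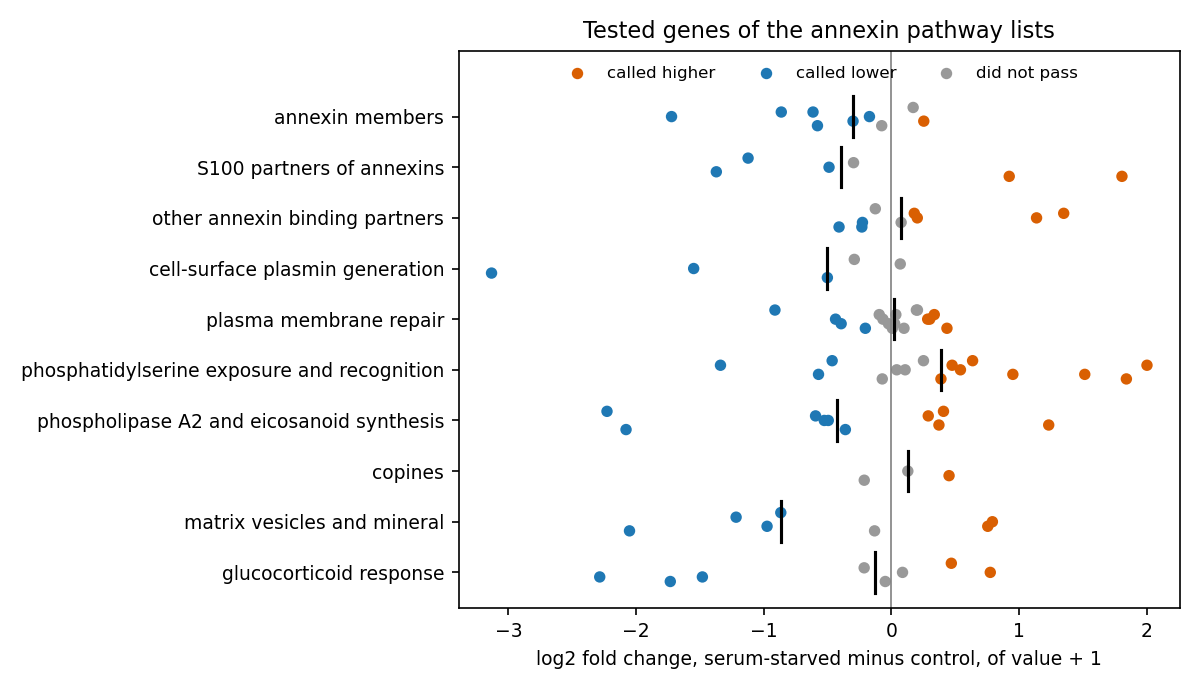
Log2 fold change (serum-starved minus control, log2 of value + 1) of each tested gene in the annexin family and 9 related lists; orange points were called higher, blue lower and grey did not pass, and bars are list medians. The plasmin list has its median at -0.50 and the phosphatidylserine list at 0.39.

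The genes whose pattern over the 6 libraries was most like that of Anxa2, by Pearson's r of log2(value + 1) among 8571 genes with a mean value of at least 5, were Des, Adam19 and Dut, each with r = 0.9996. Des, which encodes desmin, fell from 125 ± 12.1 to 12.9 ± 2.37, Adam19, a membrane protease, from 37.5 ± 0.692 to 18.9 ± 0.876, and Dut, a dUTPase, from 76.9 ± 3.29 to 12.5 ± 1.38 (SD, n = 3 each). As many as 1563 genes had an r of at least 0.95 with Anxa2 over these 6 libraries, which fall into 2 separate groups for Anxa2. For Anxa11 the closest were Fut11 (r = 0.9927), Camlg (r = 0.9926) and Txnrd2 (r = 0.9901), and 66 genes reached 0.95. Fut11 was at 8.83 ± 0.455 in control and 11.01 ± 1.12 in serum-starved cells, Camlg at 14.1 ± 0.327 and 15.5 ± 0.783, and Txnrd2 at 4.72 ± 0.278 and 6.38 ± 1.07 (SD, n = 3 each).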

How the data were processed

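Ribosomal RNA was removed with biotin-labelled probes and cDNA was made from random primers, per the labels' protocols. The authors deposited 1 value per gene and library, and these values are treated as FPKM. The file headers name no unit, and TPM over a wider gene set would differ by a factor per library. The tools named are StringTie, HISAT2, limma, DESeq2 and bcl2fastq 2.0, and the build is mm10, a mouse build, per the submitters' processing notes. The gene identifiers are rat, and 15927 (93.2%) matched the GRCr8 RefSeq table, including all 9 members. Strand and multi-mapping rules are not given in the sources used here. Groups follow the sample titles, because the treatment text is the same for every sample.

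Testing was limited to the 11493 genes that reached a value of 1 in 3 or more of the 6 libraries (5600 were left out) and used log2(value + 1), which understates changes of low genes. The test was limma 3.58.1 (R 4.3.3) with a trend on intensity and a single treatment term, which left 4 residual degrees of freedom. The fit was also run on simulated data with 200 changed genes and no difference in scale between groups. Far more genes were called here and the library sums differed, so that run does not check the fit under these conditions. Ratios were compared with exact permutation tests in scipy 1.17.1. No counts accompany the values, so no counting interval is given. At most 0.265% of values of at least 5 were equal in any pair of libraries. Alternatives were another pseudocount, filters, scalings, library weights, a replicate block and leaving out each library. Named genes were all members, all S100 partners and family members with a row, up to 3 called genes with the largest change per list, and the 3 genes most like Anxa2 and Anxa11. Other genes (Plg, Fpr1, Fpr2, Dysf, Axl, Plscr1, Mfge8, Plgrkt, Cpne2, Pla2g4a, Tsc22d3, Hsd11b1, Nr3c1, Mgp, Enpp1, Alpl and the markers) were named after their values were seen. 1 gene of the plasmin list is not reported here and was left out of that list's counts, median and named genes, which brought in Plat. The members and lists were chosen with earlier results of these data known.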

Additional observations from a re-analysis of the deposited data

How the results depend on the processing

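Across 14 alternatives, Anxa2 ranged from -1.78 to -1.43 on the log2 scale, Anxa3 from -0.69 to -0.42, Anxa5 from -0.64 to -0.39 and Anxa8 from -1.11 to -0.67, and all 4 were called lower in each. Of the members, 1 was called higher as deposited, 2 with equal library totals, 3 after quantile normalization, and 0 to 1 when single libraries were left out. Lower calls numbered 5 to 6 without single libraries, and 4 with equal totals. Of all 11493 tested genes, 3640 were higher as deposited, 5303 with equal totals and 3941 after quantile normalization, while 3384, 2327 and 3063 were lower. Without single libraries, 11228 to 11238 genes were tested, with 2946 to 3574 higher and 2792 to 3266 lower. Anxa1 changed sign to 0.117 with equal totals and 0.286 after quantile normalization, and Anxa7 to 0.0194 with equal totals; the cause was not tested beyond the rescaling itself. The summed annexin value changed by -0.65 on the log2 scale as deposited, by -0.46 with equal totals, and by -0.70 to -0.62 without single libraries. The labels do not say whether same-numbered libraries share an origin. Deviations of same-numbered libraries correlated at 0.037, -0.162 and 0.101 across genes, and those of differently numbered libraries at -0.164 to 0.164. With 3 libraries per group, these correlations cannot settle whether an origin was shared. With the replicate block, 1 member was called higher and 5 lower, Anxa7 being lost (-0.17, adjusted p = 0.0835), and 3508 of all genes were higher and 3293 lower. Both S100 ratios kept their direction with a pseudocount of 1, which is small beside these values, and without each library. Because the groups did not overlap, leaving out a library could not have reversed either ratio. Of the other genes named by the fixed rules, 449 alternative values kept their call, 13 lost it and 5 gained it. Genes named after their values were seen are outside this tally, including the calls gained by Plgrkt, Cpne2 and Fpr1 given above. Depth is unknown, and the changes of Anxa1, Anxa4, Anxa6, Anxa7 and Anxa11 are of the size that scaling or 1 library moves.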
